A study of Mus musculus with 157 samples.

Results

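The 10 genes followed here belong to the integrated stress response. Atf4, Atf5, Ddit3 and Cebpb encode transcription factors of the bZIP class, Chac1, Trib3, Asns and Ddit4 encode proteins that act downstream of them, and Ppp1r15a and Ppp1r15b encode regulatory subunits of protein phosphatase 1. They were taken by symbol from the 19600 genes of the table of counts by gene and polysome fraction, and all 10 were found. Of these, 9 were chosen for their place in the pathway, with earlier results of these data known. Chac1 was selected on its measured fall after etoposide, so its levels are given as a description with no test.

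Splenic B cells of C57BL/6Babr mice, 8 to 12 weeks old, were all activated with LPS (10 µg/ml), a bacterial product that drives B cells to grow and divide, for 48 h before etoposide. The LPS group received nothing more, the LPS+ET group then received etoposide (20 µM), which breaks DNA by trapping topoisomerase II, for 4 h, and the LPS+ET+KU group received KU55933 (10 µM), an inhibitor of the DNA damage kinase ATM, from 1 h before the same etoposide treatment, at 47 h of LPS. No group had KU55933 without etoposide. Cells were treated with cycloheximide, and cytoplasmic extracts were separated on sucrose gradients into 13 fractions in which 4 to 7 hold monosomes, 8 to 10 light polysomes and 11 to 16 heavy polysomes, each sequenced from the 3′ ends of its mRNA. Each treatment had 4 gradients, labelled as biological replicates without saying whether cells of several mice were pooled, and these are named by their library pools LUL15, LUL16, LUL17 and LUL18, which hold 1 gradient of each treatment. In such bulk extracts fewer cells that hold an mRNA and less of that mRNA per cell cannot be told apart.

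The integrated stress response starts when kinases that sense unfolded protein, amino acid shortage, double-stranded RNA or lack of haem phosphorylate the initiation factor eIF2, which lowers protein synthesis in general. Atf4, Atf5, Ddit3 and Ppp1r15a are textbook cases of mRNAs that are then translated better, because short reading frames upstream of the coding sequence capture scanning ribosomes when eIF2 is fully active. ATF4 and its partners raise genes for amino acid supply, glutathione breakdown and cell death, and PPP1R15A (GADD34) closes the loop by bringing a phosphatase to eIF2.

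The upstream reading frames are shown first because the position of these mRNAs on the gradient is the main measurement below. Sequences were read from the GRCm38 genome with GENCODE M21 transcripts, 5′ to 3′ on the strand of the gene, and capitals mark the upstream start codon. In an annotated coding transcript of each gene, the 59-codon frame of Atf4 runs 83 bases into the coding sequence, and the 58-codon frame of Atf5 runs 56 bases into it. The windows of these 2 frames span an intron, so their coordinates are the outer limits. The 34-codon frame of Ddit3 ends 26 bases before the main start codon, and the last of the 3 frames of Ppp1r15a ends 23 bases before it.
Atf4 3-codon frame, plus strand, chr15:80255570-80255596: cttgcggccaccATGgcgtattagagg
Atf4 59-codon frame, plus strand, chr15:80255669-80256216: ccggcctaagccATGgcgctcttcacg
Atf5 3-codon frame, minus strand, chr7:44816523-44816549: tccgcccgcgcaATGgctctgtagccg
Atf5 58-codon frame, minus strand, chr7:44815273-44816418: cttttcgccgccATGgagtcctccacc
Ddit3 34-codon frame, plus strand, chr10:127290817-127290843: gtcgattatatcATGttgaagatgagc
Ppp1r15a 26-codon frame, minus strand, chr7:45526075-45526101: cctgagggcgacATGaacccgctggct

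Atf4 also holds a 36-codon frame, and Ppp1r15a holds frames of 45 and 34 codons. A different annotated transcript of Ppp1r15a has a 50-codon frame that runs 76 bases into the coding sequence. Ppp1r15b has closed frames of 2, 8 and 51 codons, and the Asns transcripts have frames of 14 or 17 codons. Chac1, Trib3, Ddit4 and Cebpb have no upstream ATG. On GRCm38, Atf4 (ENSMUSG00000042406) lies at chr15:80255184-80257541, Chac1 (ENSMUSG00000027313) at chr2:119351229-119354381 and Asns (ENSMUSG00000029752) at chr6:7675169-7693254. For 9 of the members the main counted site was 0 to 3 bases from an annotated transcript end, and for Chac1 it was 55 bases away.

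The 156 libraries of fractions 4 to 16 held 14724 to 4170688 counts, and 12 of them held fewer than 100000. Gradients summed to between 6404957 counts (LPS+ET, pool LUL16) and 21449781 counts (LPS+ET+KU, pool LUL16). Heavy polysome libraries made up 30.4% of all counts in the LUL16 gradient of LPS+ET against 60.5% to 68.2% in the other LPS+ET gradients, so values that it moves most are also given without it. The 7 B cell markers summed to 6623 to 11101 CPM (counts scaled to the total of the gradient) over the 12 gradients, while 4 T cell markers reached at most 2.58 CPM, 1 NK cell marker 0.229 CPM and 3 erythroid markers 1.40 CPM. Plasma cell markers ranged from 47.1 to 792 CPM. Depth was ample for Atf4 (5588 to 48436 counts per gradient) and thin for Chac1 (36 to 653) and Trib3 (72 to 1406).

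To see where each mRNA sits on the gradient, its counts in heavy polysomes were compared with those in monosomes of the same gradients. In LPS cells 6 of the 10 members lay toward the monosomes and 3 toward the heavy polysomes, while Ppp1r15b did not pass the test. Of all 9659 genes tested, 29.9% were called toward monosomes and 29.5% toward heavy polysomes, so most genes differ from the average gene in such a test and the sizes say more than the count.

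Chac1, which encodes a γ-glutamylcyclotransferase that breaks down glutathione, lay furthest toward the monosomes. After every library was scaled to the same total, heavy polysomes held 24.3%, 21.7%, 23.6% and 18.6% of its mRNA in the 4 LPS gradients (pools LUL15 to LUL18), and its profile peaked in fraction 7. The values stayed within a narrow band below the median gene, at 55.2%, and at percentile 5.66 of 8000 genes. The log2 difference between heavy polysomes and monosomes was -2.56 (SE 0.16, adjusted p = 3.6e-15, edgeR quasi-likelihood test with Benjamini-Hochberg adjustment). Chac1 has no upstream ATG and a coding sequence of 669 bases.

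Ddit3 (CHOP, a transcription factor tied to cell death) and Atf4 followed. Ddit3 had 25.6%, 24.4%, 24.03% and 22.6% of its mRNA in heavy polysomes in LPS cells, with a log2 difference of -2.18 (SE 0.14, adjusted p = 9.6e-15). Atf4 had 26.3%, 26.8%, 28.4% and 27.9%, with a log2 difference of -1.63 (SE 0.13, adjusted p = 9.8e-13), and peaked in fraction 9. Replicates of both genes lay within a few percentage points of each other and stood at percentiles 7.08 and 9.38. Ppp1r15a (-0.89, SE 0.16, adjusted p = 1.8e-05), Atf5 (-0.72, SE 0.13, adjusted p = 1.9e-05) and Cebpb (-0.51, SE 0.16, adjusted p = 0.0065) were shifted less, with peaks in fraction 9. The Cebpb call was lost without the LPS gradient of pool LUL15 (-0.56, adjusted p = 0.016), LUL16 (-0.30, adjusted p = 0.13) or LUL18 (-0.50, adjusted p = 0.024).

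Asns, the enzyme that makes asparagine, sat at the other end. Heavy polysomes held 75.9%, 75.2%, 75.5% and 75.3% of Asns mRNA in LPS cells, at percentile 92.2 of genes, with the peak in fraction 14 and a log2 difference of 1.37 (SE 0.13, adjusted p = 5e-11). The 4 replicates hardly differed. Ddit4 (REDD1, an inhibitor of mTORC1) had a log2 difference of 0.82 (SE 0.13, adjusted p = 2.1e-06), and Trib3, a pseudokinase that binds ATF4 and AKT, had 0.77 (SE 0.22, adjusted p = 0.0023). The Trib3 call was lost without the LPS gradient of pool LUL15 (0.55, adjusted p = 0.038) or LUL18 (0.73, adjusted p = 0.016). Ppp1r15b, the constitutive counterpart of Ppp1r15a, gave 0.35 (SE 0.13, adjusted p = 0.020).

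**Figure D1:**
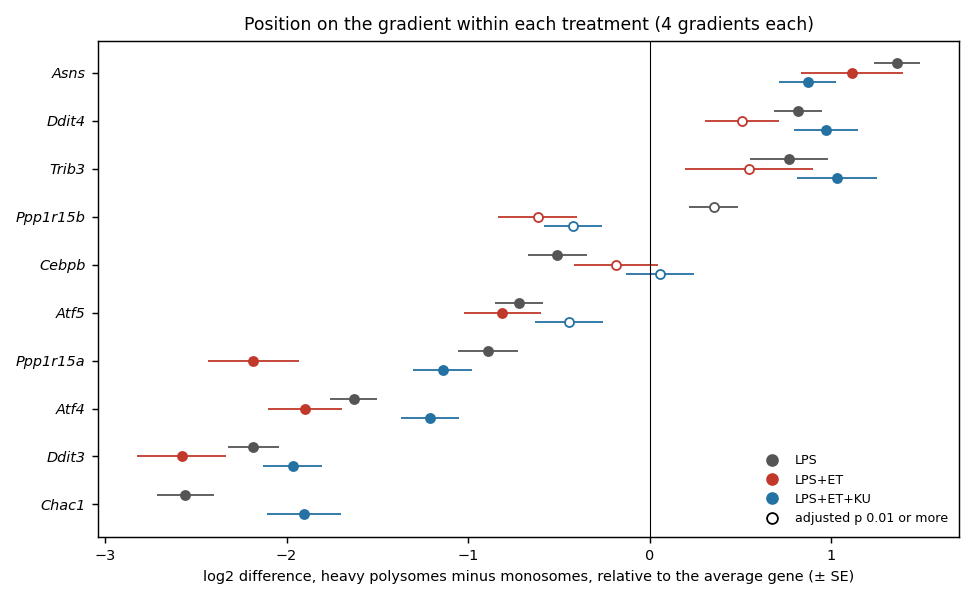
Log2 difference between heavy polysomes and monosomes (x axis, relative to the average gene, with SE) for the 10 genes (y axis) in LPS (grey), LPS+ET (red) and LPS+ET+KU (blue), 4 gradients each; open symbols have an adjusted p of 0.01 or more. Asns lies furthest right in LPS cells at 1.37 and Chac1 furthest left at -2.56, and Chac1 has no point in LPS+ET because it was below the count filter.

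Coding length and upstream frames both went with position over all genes, as descriptions. Of 8983 genes with a coding transcript in LPS cells, the 50.9% with an upstream ATG had a median log2 difference of 0.0046 and the rest 0.13, and the 16% with a frame that overlaps the coding sequence had -0.10. Genes with coding sequences under 600 bases had a median of -0.66, those from 600 to under 1200 bases 0.02, those from 1200 to under 2400 bases 0.12 and longer ones 0.44. Members under 1200 bases lay on both sides. Ddit3 (504 bases), Chac1 (669 bases), Atf5 (849 bases), Cebpb (888 bases) and Atf4 (1047 bases) lay toward monosomes. Ddit4 (687 bases) and Trib3 (1062 bases) lay toward heavy polysomes. Ppp1r15a (1971 bases) and Asns (1683 bases) belong to the same length class and also lay on opposite sides, and Ppp1r15b (2091 bases) of that class did not pass. The part of length or of upstream frames in any member's position was not tested.

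In LPS+ET cells 4 of the 9 members tested lay toward the monosomes and 1 toward the heavy polysomes, against 18.4% and 21.9% of 8654 genes. Ddit3 gave -2.58 (SE 0.25, adjusted p = 1.8e-07), Ppp1r15a -2.18 (SE 0.25, adjusted p = 1.8e-06) and Atf4 -1.90 (SE 0.20, adjusted p = 7.4e-07). Atf5 gave -0.81 (SE 0.21, adjusted p = 0.0040), a call lost without the LUL15 gradient of LPS+ET (adjusted p = 0.024), LUL17 (0.019) or LUL18 (0.027). Asns gave 1.12 (SE 0.28, adjusted p = 0.0030), was not called without the LUL15 gradient of LPS+ET (1.12, adjusted p = 0.024), and fell to 0.60 (adjusted p = 0.0011) without that of LUL16. Ppp1r15b, at -0.62 (adjusted p = 0.024), was called without the LUL16 gradient of LPS+ET (-0.56, adjusted p = 0.0021). Ddit4 and Trib3 did not pass, at 0.51 (adjusted p = 0.043) and 0.55 (adjusted p = 0.20).

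In LPS+ET+KU cells 4 of the 10 members lay toward the monosomes and 3 toward the heavy polysomes, against 25.7% and 24.5% of 10752 genes. The 4 were Ddit3 (-1.97), Chac1 (-1.90), Atf4 (-1.21) and Ppp1r15a (-1.14), and the 3 were Trib3 (1.03), Ddit4 (0.97) and Asns (0.87). Atf5 (-0.44, adjusted p = 0.047) and Ppp1r15b (-0.42, adjusted p = 0.029) did not pass. Whether a position differs between treatments was tested on the shares and profiles.

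**Figure D2:**
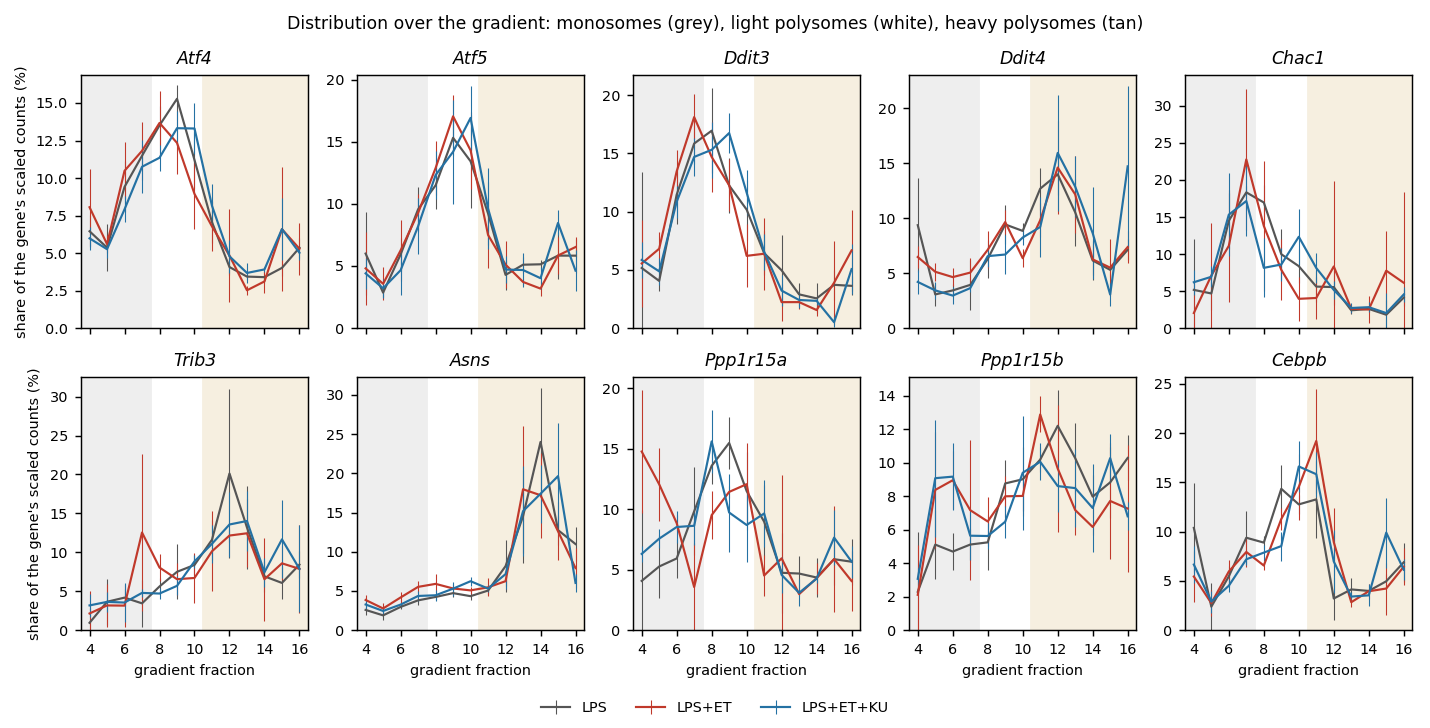
Share of each gene's mRNA (y axis, percent, after every library was scaled to the same total) in gradient fractions 4 to 16 (x axis), as the mean of 4 gradients with SD, for LPS (grey), LPS+ET (red) and LPS+ET+KU (blue); background shading marks monosomes, light polysomes and heavy polysomes. Asns peaks in fractions 13 to 15, Chac1 in fraction 7, and Ppp1r15a in LPS+ET has its highest mean, 14.8%, in fraction 4.

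Etoposide shifted no member's heavy polysome share past the threshold. With limma on the log2 odds of the share, 0 of the 10 members were called in LPS+ET against LPS (3 at an unadjusted p under 0.05), 0 in LPS+ET+KU against LPS+ET (1) and 0 in LPS+ET+KU against LPS (4), and the counts were also 0 with the pool as a block. Calls were rare over all 8000 genes, at 0.312%, 0% and 0.863%. Asns came nearest: its heavy share was 69.6%, 66.7%, 64.5% and 68.8% after etoposide and 68.5%, 71.1%, 72.6% and 70.5% with KU55933. Neither set overlapped the LPS values. The difference after etoposide was -0.57 on the log2 odds scale (SE 0.16, adjusted p = 0.073) and with KU55933 -0.35 against LPS (SE 0.16, adjusted p = 0.24).

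The heavy shares of Ppp1r15b and Cebpb also did not overlap between LPS and LPS+ET, in opposite directions. Ppp1r15b had 60.0%, 55.7%, 62.5% and 60.8% in LPS and 46.9%, 48.2%, 55.0% and 53.5% in LPS+ET (log2 odds -0.52, SE 0.19, adjusted p = 0.15). Cebpb had 38.4%, 31.8%, 39.2% and 36.3% in LPS and 40.6%, 41.9%, 51.6% and 48.2% in LPS+ET (log2 odds 0.55, SE 0.20, adjusted p = 0.14). Neither passed the adjustment over all genes. With KU55933 added, Ddit4 had 60.8%, 65.3%, 63.4% and 67.9%, above its 54.0% to 57.1% in LPS and 51.5% to 60.0% in LPS+ET. The LPS+ET+KU shares of Atf4 and Cebpb also lay above all their LPS shares, and those of Ppp1r15b lay below. None of these was called. How many of all genes have heavy shares that do not overlap was not counted, here or for Asns. Atf4, whose upstream frames make its position of interest under stress, had 28.6%, 41.7%, 25.2% and 21.03% after etoposide, on both sides of its LPS values (log2 odds 0.09, 95% interval -0.47 to 0.65, and -0.19 without pool LUL16 of LPS+ET).

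Chac1 after etoposide had 20.1%, 43.0%, 23.4% and 39.01% of its mRNA in heavy polysomes, but with only 36, 55, 40 and 49 counts per gradient. Its log2 odds differed from LPS by 0.66 (SE 0.32, adjusted p = 0.25). The spread was wide, and the 95% interval ran from -0.01 to 1.34.

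Ppp1r15a (GADD34) was the only member whose profile over the fractions differed by the interaction tests given next. In the 2 lightest monosome fractions, 4 and 5, it had 6.57%, 11.5%, 5.28% and 14.0% of its mRNA in LPS cells, 34.3%, 17.4%, 26.6% and 29.2% in LPS+ET cells, and 13.4%, 14.4%, 13.2% and 14.6% in LPS+ET+KU cells. All 4 LPS+ET gradients exceeded every gradient of the other treatments. These shares rested on 4 to 33 counts in LPS, 24 to 98 in LPS+ET and 188 to 397 in LPS+ET+KU. The window was chosen after the profile was seen, so it carries no test of its own.

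A model of fraction, treatment and their interaction against fraction alone, the study's design, called 7 of 9 members in LPS+ET against LPS (31% of 10360 genes) and 6 of 9 when KU55933 was added to etoposide (8.01% of 10472 genes). This model treats the 13 libraries of a gradient as independent and mixes level with profile. The interaction tests that follow also use single-fraction libraries as units, so their p-values do not measure the spread between whole gradients. The interaction alone, which asks about the profile, called only Ppp1r15a after etoposide (adjusted p = 0.0054, against 1.37% of genes), and 0 of 9 with KU55933 (1 at an unadjusted p under 0.05, Ppp1r15a with adjusted p = 0.093, against 1.05% of genes). With a term for each gradient, Ppp1r15a was again the only member called, at adjusted p = 8.6e-07 after etoposide (5.72% of genes) and 3.4e-04 with KU55933 (3.63% of genes). The summed heavy share did not carry this change: Ppp1r15a had 37.2%, 30.5%, 41.3% and 28.2% in LPS and 22.9%, 46.3%, 22.5% and 19.1% in LPS+ET, with pool LUL16 standing apart (log2 odds -0.51, adjusted p = 0.43, and -0.92, adjusted p = 0.056, without that gradient).

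Levels were compared as the counts of fractions 4 to 16 summed per gradient, the ribosome-associated mRNA. These sums weight each fraction by the depth of its library. Heavy polysome libraries made up 52.3% to 62.4% of counts in the LPS gradients and 37.6% to 55.5% in the LPS+ET+KU gradients. The level of an mRNA that lies toward monosomes or heavy polysomes can therefore also move with depth. Fits with equally weighted libraries are among the alternatives. After etoposide Cebpb and Ddit4 rose and Atf4 fell, with 6 of the 9 tested members not passing. Of all 12755 genes, 7.88% were called higher and 4.81% lower. How many of all genes have levels that do not overlap between treatments was not counted, so overlap of gradients is given only as a description. Gradients of a pool deviated together, so values with the pool as a block stand beside those they change. In the sample titles the gradients of LUL15 share a replicate number, as do those of LUL17, while LUL16 and LUL18 are not told apart. Whether a shared number stands for cells of the same mice or only for libraries handled together is not said. With the block Trib3 also fell, making 4 of 9 members against 26.7% of genes. With KU55933 added, 0 of 9 members passed against LPS+ET by edgeR (0.22% of genes higher, 0.235% lower), with 5 at an unadjusted p under 0.05. DESeq2 called 5 of 9 (3.25% of genes) and the block also 5 (6.36% of genes), all higher. Against LPS, LPS+ET+KU cells had 3 of 9 members higher and 0 lower (6.25% and 4.42% of genes), or 4 with the block (28.1% of genes). Without pool LUL16 the numbers called by edgeR were 6, 5 and 5 of 9 in these 3 comparisons. The share of all genes called without that pool is not set beside these counts, so they are no result about the members.

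**Figure D3:**
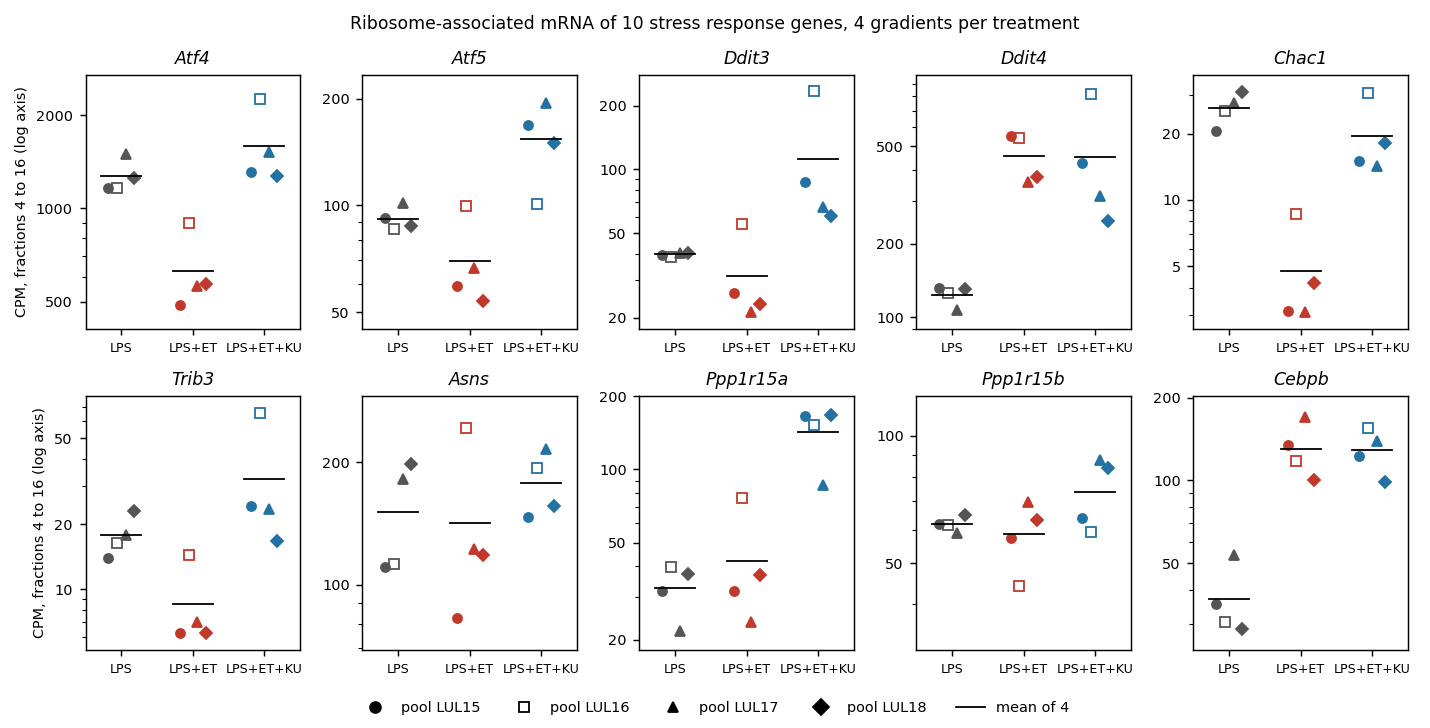
Ribosome-associated mRNA (y axis, CPM over fractions 4 to 16, log axis) of the 10 genes in 4 gradients of each treatment (x axis); symbols mark library pools and bars the mean of 4. Atf4 is lower in all 4 LPS+ET gradients than in any LPS gradient, and Ddit4 and Cebpb are higher. Pool LUL16 (open squares) lies above the other pools for Ddit3 and Trib3 in both etoposide groups. Chac1 was selected on its fall after etoposide.

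Atf4, the central transcription factor, stood at 1165, 1165, 1499 and 1258 CPM in LPS, at 488, 895, 563 and 572 CPM after etoposide, and at 1316, 2258, 1525 and 1269 CPM with KU55933 added (pools LUL15 to LUL18 throughout). The LPS+ET values lay below all others, and the remaining groups overlapped. After etoposide it fell by 1.12 on the log2 scale (SE 0.25, adjusted p = 0.0058, with the block 1.1e-04). This call was lost when any LPS gradient or the LUL15, LUL17 or LUL18 gradient of LPS+ET was left out (adjusted p 0.011 to 0.021), and the fall was 1.36 without the LPS+ET gradient of LUL16. With KU55933 it was 1.33 higher than in LPS+ET (SE 0.25, adjusted p = 0.018, with the block 3.0e-04, and 0.0040 without the LUL16 gradient of LPS+ET). Against LPS the difference was 0.21 (95% interval -0.32 to 0.74).

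Atf5, a related factor of mitochondrial stress, had 92.4, 85.7, 101.3 and 87.3 CPM in LPS and 59.1, 99.5, 66.4 and 53.7 CPM after etoposide. With KU55933 it had 169, 100.9, 195 and 150 CPM. The LUL16 gradient of LPS+ET alone reached the LPS values, and every LPS+ET+KU gradient lay above every LPS+ET gradient. The difference between KU55933 and etoposide alone was 1.14 on the log2 scale (SE 0.24, adjusted p = 0.029, with the block 0.0041). It passed without the LUL16 gradient of LPS+ET (adjusted p = 0.0050) or the LPS+ET+KU gradient of LUL16 (adjusted p = 0.0096).

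Ddit3 had 39.5, 38.7, 40.6 and 40.6 CPM in LPS and 26.2, 55.3, 21.2 and 23.2 CPM after etoposide. With KU55933 it had 87.1, 234, 66.5 and 60.2 CPM. The LPS values were nearly equal, the LPS+ET values fell on both sides of them, and the LPS+ET+KU values exceeded all others. KU55933 against etoposide alone gave 1.82 (SE 0.42, adjusted p = 0.041, with the block 6.0e-04), and against LPS 1.37 (SE 0.42, adjusted p = 0.031, with the block 1.12 and 0.0023). Without the LUL16 gradient of LPS+ET+KU these differences were 1.17 and 0.71, and without that of LPS+ET the first was 2.27.

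Cebpb, which pairs with CHOP and ATF4 and also serves the myeloid lineage, rose from 35.6, 30.7, 53.5 and 28.97 CPM in LPS to 134, 118, 169 and 100.0 CPM after etoposide, and stood at 123, 155, 139 and 98.8 CPM with KU55933 added. Both etoposide groups lay wholly above LPS and overlapped each other. The log2 difference from LPS was 1.70 after etoposide (SE 0.23, adjusted p = 1.7e-04) and 1.69 with KU55933 (SE 0.23, adjusted p = 2.9e-04), each called in all 12 fits that left out a gradient. The 5 myeloid markers measured, none at 0 in a group, summed to 30.4 to 84.7 CPM in LPS, 43.6 to 156 CPM after etoposide and 25.2 to 103 CPM with KU55933 added, and their part in the Cebpb difference was not tested.

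Among the downstream genes Chac1 stood at 20.5, 25.2, 27.5 and 30.9 CPM in LPS, 3.14, 8.59, 3.10 and 4.19 CPM after etoposide, and 15.0, 30.4, 14.2 and 18.1 CPM with KU55933 added. The fall after etoposide is the one Chac1 was selected on, so it is no separate finding. Pool LUL16 held the highest LPS+ET value, and LPS and LPS+ET+KU overlapped. The mean in LPS+ET was 0.183 of that in LPS, and the mean in LPS+ET+KU was 4.09 times that in LPS+ET. In monosomes the etoposide values were 5.54, 17.8, 2.86 and 7.90 CPM, all below every LPS gradient. In heavy polysomes they were 2.02, 4.11, 1.82 and 2.77 CPM, where the LPS gradients had 11.1, 12.3, 11.5 and 15.1 CPM.

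Ddit4, which restrains mTORC1 and is also known as a p53 target, had 133, 125, 107 and 130 CPM in LPS and 552, 541, 358 and 376 CPM after etoposide. With KU55933 it had 429, 819, 313 and 247 CPM. It rose by 1.76 on the log2 scale after etoposide (SE 0.31, adjusted p = 0.0012) and by 1.74 with KU55933 against LPS (SE 0.31, adjusted p = 0.0017, or 1.28 without the LUL16 gradient of LPS+ET+KU). Every gradient with etoposide exceeded every LPS gradient, and the etoposide groups overlapped, differing by -0.02 (95% interval -0.67 to 0.63).

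Trib3 had 13.9, 16.3, 17.8 and 22.9 CPM in LPS, 6.29, 14.4, 7.06 and 6.24 CPM after etoposide, and 24.2, 65.6, 23.4 and 16.6 CPM with KU55933 added. Within each pool it was lower after etoposide, yet the groups overlapped through the LUL16 gradient of LPS+ET. The difference from LPS was -1.19 (SE 0.42, adjusted p = 0.056), or -1.30 (adjusted p = 0.0023) with the block. Without the LUL16 gradient of LPS+ET+KU the adjusted p was 0.0082. It was -1.58 without the LUL16 gradient of LPS+ET. KU55933 against etoposide alone gave 1.95 (SE 0.42, adjusted p = 0.033, with the block 8.9e-04), or 1.34 without the LUL16 gradient of LPS+ET+KU.

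Asns, in contrast, gave no difference past the threshold in any comparison. It had 111, 112, 181 and 197 CPM in LPS, 82.8, 243, 123 and 118 CPM after etoposide, and 147, 193, 215 and 156 CPM with KU55933 added. The groups overlapped throughout, and the LUL16 gradient of LPS+ET held the highest value of all 12. The difference after etoposide was -0.19 (95% interval -0.90 to 0.52, adjusted p = 0.74), -0.60 without that gradient and 0.02 without the LPS+ET gradient of LUL15. In heavy polysomes that gradient had 538 CPM, against 109, 145 and 146 CPM in the other LPS+ET gradients.

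Of the phosphatase subunits, Ppp1r15a had 31.7, 39.6, 21.7 and 37.1 CPM in LPS, 31.5, 76.4, 23.6 and 36.7 CPM after etoposide, and 166, 152, 86.1 and 167 CPM with KU55933 added. The first 2 groups overlapped, and every LPS+ET+KU gradient exceeded them. The difference from LPS was 0.25 after etoposide (95% interval -0.50 to 1.01, and -0.23 without the LUL16 gradient of LPS+ET) and 2.01 with KU55933 (SE 0.36, adjusted p = 0.0018, called in all 12 fits that left out a gradient). Against etoposide alone KU55933 gave 1.75 (SE 0.36, adjusted p = 0.026, with the block 8.4e-05, and 0.0026 without the LUL16 gradient of LPS+ET). Ppp1r15b ranged from 44.2 to 87.6 CPM over all 12 gradients, and none of its level differences exceeded 0.34 on the log2 scale.

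The same contrasts were run within monosomes, light and heavy polysomes. After etoposide Atf4 fell and Ddit4 and Cebpb rose in each class, so 3 of 9 members were called in monosomes (9.52% of genes), in light polysomes (10.6%) and in heavy polysomes (9.69%). Atf4 differed by -0.83 in monosomes (SE 0.17, adjusted p = 0.0031) and by -1.30 in heavy polysomes (SE 0.27, adjusted p = 0.0040). Ddit4 differed by 2.27 (SE 0.25, adjusted p = 5e-05) and 1.77 (SE 0.37, adjusted p = 0.0041), and Cebpb by 1.71 (SE 0.27, adjusted p = 5.6e-04) and 1.80 (SE 0.32, adjusted p = 0.0011). The monosome call of Atf4 was lost without the LPS gradient of pool LUL18 or the LPS+ET gradient of LUL15 or LUL17 (adjusted p 0.010 to 0.011). In heavy polysomes the Atf4 call was lost without the LPS gradient of pool LUL17 or LUL18 or the LPS+ET gradient of LUL15, LUL17 or LUL18 (adjusted p 0.011 to 0.016). There the Ddit4 call was lost without any single LPS gradient or the LUL15 gradient of LPS+ET (adjusted p 0.012 to 0.016).

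Both phosphatase subunits had higher monosome values after etoposide in every pool. Ppp1r15a had 32.3, 37.9, 10.3 and 29.9 CPM there in LPS and 59.5, 83.5, 40.1 and 55.3 CPM in LPS+ET, while in heavy polysomes it had 23.9, 26.7, 19.5 and 27.2 CPM in LPS and 14.1, 42.1, 14.1 and 19.5 CPM after etoposide. The monosome values did not overlap, and the heavy polysome values did. The monosome difference was 1.16 (SE 0.31, adjusted p = 0.017, with the block 2.5e-05), and the heavy polysome difference -0.22 (SE 0.36, adjusted p = 0.72). Ppp1r15b in monosomes differed by 0.76 (SE 0.22, adjusted p = 0.026, with the block 7.0e-04). With the block 5 of 9 members were thus called in monosomes (24.6% of genes), 3 in light polysomes (25%) and 4, with Trib3 (adjusted p = 0.0052), in heavy polysomes (20.6%).

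With KU55933 against etoposide alone, heavy polysomes gave the only calls by edgeR: 2 of 9 members, against 0.572% of genes. Atf4 was 1.70 higher (SE 0.28, adjusted p = 0.0066) and Ppp1r15a 2.24 higher (SE 0.37, adjusted p = 0.0068), the latter at 127, 88.8, 78.8 and 153 CPM, above all gradients of LPS and LPS+ET. These calls sat near the threshold and were kept in 3 (Atf4) and 2 (Ppp1r15a) of 12 fits that left out a gradient, with adjusted p up to 0.030 and 0.034 in the rest. Heavy polysome calls numbered 5 of 9 both by DESeq2 (2.5% of genes) and with the block (3.27%), adding Atf5, Ddit3 and Trib3. In monosomes edgeR called 0 of 9 (0.213% of genes, 5 members at an unadjusted p under 0.05), DESeq2 4 (1.22%) and the block 5 (5.62%), among them Ddit4, lower by 0.49 (adjusted p = 0.0078). In light polysomes edgeR called 0 of 9 (0.292%, 5 members at an unadjusted p under 0.05), DESeq2 4 (2.16%) and the block 5 (5.35%).

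Against LPS, KU55933 with etoposide gave Cebpb, Ddit4 and Ppp1r15a as the members called in all classes, 3 of 9 in monosomes (5.96% of genes), in light polysomes (7.13%) and in heavy polysomes (7.95%). Ppp1r15a was 2.37 higher in monosomes and 2.02 higher in heavy polysomes. The block added Asns, Ddit3 and Ppp1r15b in monosomes (23.2% of genes), Atf5 and Ddit3 in light polysomes (24.1%) and Ddit3 in heavy polysomes (21.4%).

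**Figure D4:**
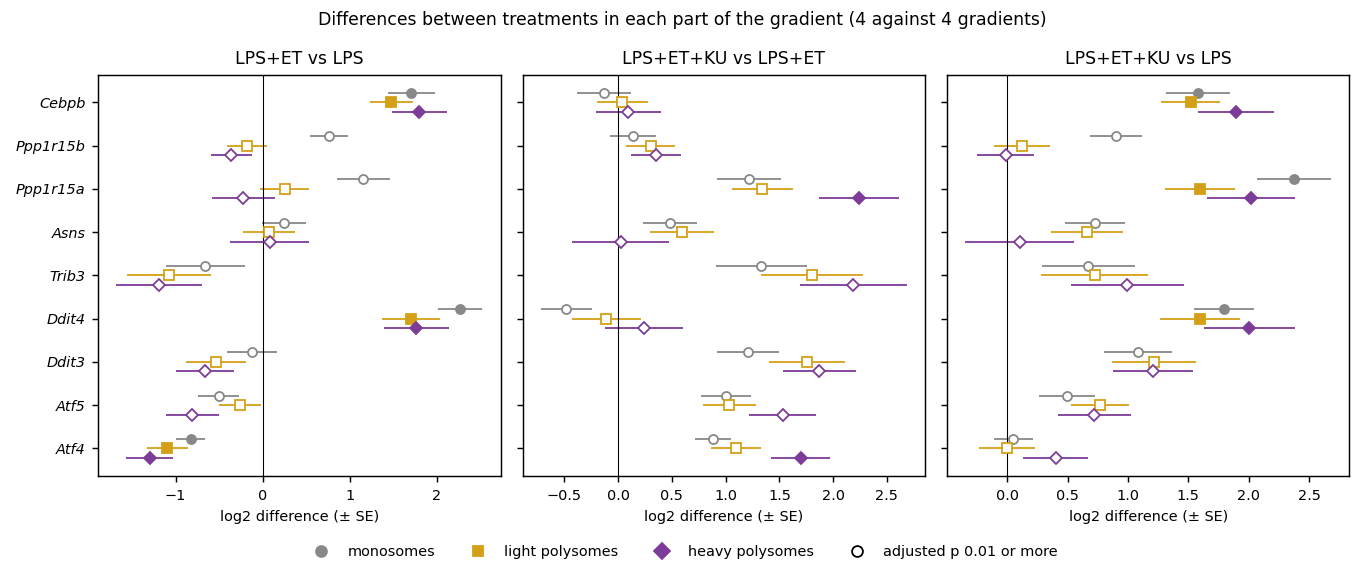
Log2 difference (x axis, with SE) of 9 genes (y axis) between treatments in monosomes (circles), light polysomes (squares) and heavy polysomes (diamonds), 4 against 4 gradients; open symbols have an adjusted p of 0.01 or more. Ppp1r15a after etoposide lies at 1.16 in monosomes and -0.22 in heavy polysomes, while Atf4, Ddit4 and Cebpb lie on the same side of 0 in all classes.

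Amino acid response genes carry a composite C/EBP-ATF element, bound by ATF4 with a C/EBP partner. The letters TGATGNAA were searched on both strands from 250 bases before to 50 bases after each RefSeq gene start (GRCm38 coordinates), and were found for 3 of the 9 members with a promoter in the table, Chac1, Asns and Trib3, against 3.97% of all 32851 promoters. The windows are shown on the strand of the gene because they hold the letters searched, and capitals mark the element or its complement.
Chac1 promoter, first base 193 before the gene start, chr2:119351040-119351065: tccctgccgTTGCATCActcctgcca
Asns promoter, first base 23 before the gene start, chr6:7693216-7693241: ccagccacaTGATGAAActtcccgca
Trib3 promoter, first base 14 after the gene start, chr2:152344030-152344055: agctcaggtTTACATCAgccgggcgg

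The 3 genes with the element had mean LPS+ET levels of 0.183 (Chac1), 0.479 (Trib3) and 0.941 (Asns) of their LPS means. The Chac1 value is the fall it was selected on. A match is a description of letters and not a bound site. The Asns letters lie before the RefSeq gene start but inside the GENCODE transcript that holds the 14-codon frame, and they overlap the start codon of that frame.

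Other genes of the response were taken from lists of pathway members. Of 14 genes for eIF2 kinases, eIF2 and eIF2B subunits, all tested, 0 passed in any treatment comparison by edgeR, and with the block 0, 0 and 1. Of 20 amino acid synthesis and transport targets of ATF4, 1 rose and 1 fell after etoposide, and the median log2 difference was -0.29 against 0.03 over all genes, of which 7.88% rose and 4.81% fell. Sesn2, a stress sensor that is also a p53 target, rose from 35.2 ± 12.5 to 276 ± 60.9 CPM (mean ± SD, n = 4, log2 difference 2.86, SE 0.31, adjusted p = 2.5e-05). Psph, the last enzyme of serine synthesis, fell from 63.8 ± 6.80 to 35.1 ± 5.27 CPM (-0.98, SE 0.16, adjusted p = 5.3e-04). With the block 1 rose and 4 fell, where 26.7% of all genes were called.

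Of 13 genes for tRNA charging 0 passed after etoposide (median -0.33, and 3 lower with the block). Of 12 further ATF4 or CHOP targets tested, Tnfrsf10b, the death receptor DR5 and also a p53 target, was the 1 called by edgeR (3 higher and 1 lower with the block), rising from 4.62 ± 0.973 to 89.8 ± 23.4 CPM (mean ± SD, n = 4, log2 difference 4.17, SE 0.29, adjusted p = 1.1e-06). With KU55933 against etoposide alone, edgeR called 1 gene of these lists, the bZIP factor Atf3, named after its values were seen, while the block called 3 higher and 1 lower among the amino acid genes and 2 higher and 1 lower among the further targets (6.36% of all genes). It stood at 43.5 ± 2.39 CPM in LPS, 46.9 ± 4.55 CPM after etoposide and 98.4 ± 13.7 CPM with KU55933 added (mean ± SD, n = 4, log2 difference 1.07, SE 0.14, adjusted p = 0.0020). The call was lost without the LUL15, LUL17 or LUL18 gradient of LPS+ET or the LPS+ET+KU gradient of LUL18 (adjusted p 0.010 to 0.016).

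On the gradient in LPS cells, the tRNA charging genes lay toward heavy polysomes, as Asns did, with 11 of 13 called and none the other way (median log2 difference 1.23 against 0.02 over all genes, of which 29.5% were called toward heavy polysomes and 29.9% toward monosomes). Of 19 amino acid genes tested 13 lay toward heavy polysomes and 2 toward monosomes, namely, named after their values were seen, the glutamine transporter Slc1a5 (-1.61) and the mitochondrial folate enzyme Mthfd2 (-0.59). Of 10 other targets 3 lay each way, with Gdf15, a secreted stress cytokine also named afterwards, at -2.29. Of 12 eIF2 pathway genes 4 lay toward heavy polysomes and 0 toward monosomes.

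As a description, genes whose level ran most like that of a member over the 12 gradients were ranked among 12754 genes by the mean absolute difference of centred log2 CPM. For Chac1 the near genes included AC123702.1 (0.27), Gm129 (0.29), 4930519P11Rik (0.42) and Pik3ip1 (0.43), where Chac1 itself ranged over 3.504 log2 units. For Atf4 they were BC051226 (0.17), 2610035D17Rik (0.18), Slc2a6 (0.18), Nkiras2 (0.20) and Cyth4 (0.21), over a range of 2.33. For Asns they were Rpsa-ps11 (0.20), Pde4d (0.20), Tmem106a (0.20), Rpsa-ps9 (0.20) and Got1 (0.20), over a range of 1.72, and the Rpsa pseudogenes may share reads with other copies.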

How the data were processed

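The study states that fraction libraries were made from RNA at identical concentrations, with amounts that varied over a range. They were sequenced from the 3′ ends of polyadenylated mRNA, with 5 random bases as molecular identifiers. The authors aligned reads to GRCm38/mm10 with TopHat2 and deposited raw whole-number counts per gene, gradient and fraction, and the processing notes name TopHat2 2.0.12, HTSeq and DESeq2 1.6.3. With RNA brought to the same concentration, a library does not show how much RNA its fraction held, so shares were computed after scaling libraries to the same total. They are relative to the average gene. Counting at 3′ ends does not separate isoforms with a common end.

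All 157 columns were used for identity, and the fraction 17 library (777 counts, LPS) was left out. Of the 156 others, 78 give treatment, fraction and pool but no sample of their own. Counts were summed per gradient over fractions 4 to 16 or over a polysome class, and tested with edgeR 4.0.16 (quasi-likelihood, TMM, low counts filtered, all 12 gradients in 1 fit) at a Benjamini-Hochberg adjusted p under 0.01 over all genes tested. Heavy against monosomes was fitted with the gradient as a block. Heavy shares (for genes averaging at least 100 counts a gradient, with 0.5 scaled counts added to either side) were tested as log2 odds with limma 3.58.1. SE is the log2 difference over the root of F, and 95% intervals use the t distribution of the fit. P-values of the level, share and position tests are two-sided and cover only the spread between gradients. Those of the profile models have no direction and measure the spread between single-fraction libraries.

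Pools pair the gradients: deviations from treatment means correlated at 0.305 to 0.799 in 12 of 12 same-pool pairs (median 0.585), against a median of -0.19 in 36 other pairs. Alternatives were DESeq2 1.42.0, limma on equally weighted libraries, other filters and thresholds, the pool block and leaving out gradients or pools. Scripts were tested on simulated data. The members, gene lists and rules were chosen with earlier results of these data known. Named genes are the members, up to 2 list genes in either direction among those called after etoposide, and the 5 nearest in likeness to Chac1, Asns and Atf4. A gene among these is not reported here.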

Additional observations from a re-analysis of the deposited data

Results flagged for a closer look

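In 6 of 60 groups of 4 gradients, 1 gradient stood apart by Dixon's criterion, where chance gives about 1 in 20. In the LPS+ET gradient of pool LUL16, Ddit3 was at 55.27 CPM (others 21.2 to 26.2), Trib3 at 14.36 CPM (others 6.24 to 7.06), and the heavy polysome share of Ppp1r15a at 46.27% (others 19.1% to 22.9%). In the LPS+ET+KU gradient of the same pool, Ddit3 was at 233.5 CPM (others 60.2 to 87.1) and Trib3 at 65.55 CPM (others 16.6 to 24.2). The heavy polysome share of Trib3 was 42.82% in the LPS+ET gradient of pool LUL15 (others 61.7% to 64.2%).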

How the results depend on the processing

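Over 80 single differences of the members and listed genes, 1309 alternative values kept direction and side of the threshold in 1165 cases, passed newly in 47, were lost in 73 and reversed in 24. All 24 belong to differences that were not called, and the cause was not tested. In ribosome-associated mRNA, leaving out 1 gradient gave -0.60 to 0.017 for Asns and -0.23 to 0.45 for Ppp1r15a after etoposide, -0.48 to 0.18 for Ddit4 and -0.11 to 0.15 for Cebpb with KU55933 against etoposide alone, and -0.0080 to 0.33 for Atf4 and -0.017 to 0.30 for Asns with KU55933 against LPS. Without pool LUL16, Ppp1r15a was -0.091 after etoposide, and Atf4 -0.031 and Asns -0.022 with KU55933 against LPS. With no filter Ddit4 was 0.023 and Cebpb 0.0097, and with equal weights Ddit4 was 0.10 (KU55933 against etoposide alone). With equally weighted libraries Ppp1r15a in heavy polysomes was 0.25 after etoposide. The heavy share of Atf4 after etoposide was -0.30 with counts as deposited, -0.21 with fractions 8 to 16 as polysomes, -0.20 without pool LUL16 and -0.19 to 0.29 leaving out 1 gradient, and that of Chac1 was -0.021 with fractions 8 to 16.

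With the pool as a block, members called for KU55933 against etoposide alone went from 0 to 5 of 9 (ribosome-associated), 0 to 5 (monosomes), 0 to 5 (light) and 2 to 5 (heavy), those after etoposide in monosomes from 3 to 5, and those for KU55933 against LPS from 3 to 6 (monosomes) and 3 to 5 (light). Other calls under the block changed by at most 1 member. Without the gradient block, heavy against monosomes gave 3 of 9 in LPS+ET in place of 5, and 3 of 10 with KU55933 in place of 7. The share of all genes called without that block is not set beside these counts, so they describe the processing and not the members.

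In the same order of classes, KU55933 against etoposide alone gave 5, 1, 4 and 5 members at an adjusted p under 0.05 and 5, 4, 4 and 5 by DESeq2, and without pool LUL16 5 (ribosome-associated), 2 (light) and 5 (heavy). In heavy polysomes it gave 4 with no filter, 0 with equally weighted libraries and 0 with only the 8 gradients compared. Against LPS, KU55933 gave 5 members in monosomes and 5 in light polysomes at 0.05, 5 by DESeq2 in monosomes, and 5 (ribosome-associated) without pool LUL16. After etoposide monosomes gave 5 at 0.05, and without pool LUL16 ribosome-associated mRNA and heavy polysomes each gave 6. These counts of members stand without the share of all genes under the same setting, so they describe the processing and not the members. The profile model gave 7 members after etoposide and 6 with KU55933, its interaction alone 1 and 0, and with a term per gradient 1 and 1. Leaving out 1 gradient gave 0 to 3 members for ribosome-associated mRNA, 0 to 1 for light and 0 to 3 for heavy polysomes (KU55933 against etoposide alone), 1 to 4 for light polysomes (KU55933 against LPS), 1 to 3 for heavy polysomes after etoposide and 3 to 7 for heavy against monosomes in LPS+ET.

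The 1 in light polysomes (KU55933 against LPS) came without the LPS gradient of pool LUL15, and the 3 in ribosome-associated mRNA without the LUL16 gradient of LPS+ET. Counts of members from leaving out 1 gradient also stand without the share of all genes.

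Genes called over the whole table moved more. In ribosome-associated mRNA they went after etoposide from 1618 to 3403 with the block and 2875 at 0.05. For KU55933 against etoposide alone they went from 58 to 811 with the block, 413 by DESeq2, 319 at 0.05, 275 without pool LUL16, 21 with equal weights and 0 with 8 gradients. Against LPS they went from 1361 to 3589, 2319 by DESeq2 and 2903 at 0.05. With the block, genes called after etoposide, for KU55933 against etoposide alone and against LPS went from 850, 19 and 532 to 2195, 502 and 2068 in monosomes, from 1055, 29 and 707 to 2482, 531 and 2389 in light polysomes, and from 1101, 65 and 904 to 2338, 372 and 2433 in heavy polysomes. Heavy share calls after etoposide went from 25 to 0 with counts as deposited and 5 without pool LUL16. Chac1 and Trib3 are limited by depth, and 4 gradients per treatment limit every test.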
